A study of Mus musculus with 4 samples.

Results

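Heat shock and chaperone genes were taken as all symbols of the count tables that begin with Hsp followed by a, b, d, e, h or a digit, with Dnaja, Dnajb or Dnajc, or with Cct followed by a digit. This gave 84 of 32285 genes, and 72 of them had at least 50 UMIs (unique molecular identifiers, 1 for each captured transcript) over the 4 sections. The other 12, among them Cct6b, Cct8l1, Dnajb7, Dnajb8, Dnajb13, Dnajc5b, Dnajc5g, Dnajc22, Hspa1l, Hspb7 and Hspb9, are not described further, and 5 of the 12 had 0 UMIs. The prefix also takes in proteins that are not chaperones, such as Hspb11, a subunit of the intraflagellar transport machinery, and the binding protein Hspbap1.

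The sections were coronal, held the dorsal hippocampus and were measured with Visium, in which poly(A) RNA is captured on an array of barcoded spots that each cover several cells. They came from 2 trained and 2 untrained male ArcCreERT2::eYFPflx mice aged 3 to 4 months. In these mice the promoter of the activity-regulated gene Arc drives a Cre recombinase that 4-hydroxytamoxifen switches on, so that an eYFP reporter stays on in cells that were active at that time. Trained mice learned active place avoidance, in which part of a rotating arena gives a shock, whereas untrained mice visited the same arena without shock. All of them were given 4-hydroxytamoxifen before the retention test, were then housed alone in a sound attenuation chamber, and were killed 3 days later. Each section is 1 mouse, so that n = 2 per condition.

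Chaperones bind proteins that are unfolded or only partly folded. HSP70 proteins bind and release such chains in an ATP cycle, J-domain proteins (the Dnaj genes) bring them their clients and start the cycle, HSP110 proteins exchange the nucleotide, and HSP90 proteins act later, on clients such as kinases and receptors. The chaperonins are closed chambers, HSP60 with its HSP10 lid in the mitochondrion and the CCT ring in the cytosol, where it folds actin and tubulin. Heat and other stress induce some of these genes through heat shock factor, and unfolded protein in the endoplasmic reticulum (ER) induces the ER members through a separate pathway. In neurons Hspa8 and its J-domain partners Dnajc5 (cysteine string protein) and Dnajc6 (auxilin) also work at the synapse, where Dnajc6 helps to strip clathrin from vesicles.

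Promoter matches for both induction pathways are shown as background on these genes. Whether a shared match goes with shared levels was not tested. In RefSeq promoters of build GRCm38.p6 (250 bases before to 50 after each start), 59 of the 72 genes had an entry. An ER stress element, searched on both strands as CCAAT and CCACG with 9 bases between them, was found in 3 of these 59, Hspa5, Hsp90b1 and Dnajc3, and in 37 of 27025 genes overall (0.137%). A heat shock element, searched on both strands as GAA, TTC and GAA in a row with 2 free bases between each block (or its reverse complement TTC, GAA and TTC, and matches may overlap), was found in Hspd1, Hspe1, Hsph1 and Dnajb6, 4 of 59, and in 179 of 27025 genes (0.662%). Capitals mark the matches, and all stretches are written 5′ to 3′ on the strand of the gene.
Hspa5, chr2:34772020-34772048 (+): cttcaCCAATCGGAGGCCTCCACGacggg
Hsp90b1, chr10:86705513-86705676 (-): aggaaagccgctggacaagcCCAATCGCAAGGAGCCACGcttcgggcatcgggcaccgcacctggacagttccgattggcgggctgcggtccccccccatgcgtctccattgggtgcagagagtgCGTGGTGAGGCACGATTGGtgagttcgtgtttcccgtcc
Dnajc3, chr14:118937807-118937865 (+): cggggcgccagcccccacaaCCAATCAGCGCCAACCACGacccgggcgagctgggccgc
Hspe1, chr1:55088054-55088081 (+): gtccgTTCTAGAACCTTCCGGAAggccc
The match of Hspa5 ended 46 bases before its RefSeq start, that of Dnajc3 86 bases before, and the matches of Hsp90b1 lay between 88 and 212 bases before. Hspe1 and Hspd1, which encode the lid and the chamber of the mitochondrial chaperonin, lie head to head, and the stretch shown is the same DNA for both, read from the other strand for Hspd1. It lay 71 to 89 bases before the start of Hspe1 and 126 to 144 bases before that of Hspd1. For Hspa5 and for Hspd1, transcripts of the GENCODE vM21 annotation that start farther upstream cover these stretches.

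Depth was 3560294 to 10330015 UMIs per section over 2359 to 3055 spots, lowest in untrained 1, in which dorsal and medial cortex were also largely missing. The 84 genes took 266014 UMIs, of which Hspa8, Hsp90aa1 and Hsp90ab1 took 40.2%. Spots were assigned to 14 regions by the list of 6 marker genes that led them and their touching neighbours, and none of the heat shock and chaperone genes was among the markers. In 55 of 56 region and section pairs the level of a list was highest in the region of its name. The exception was 1 section for the meninges list. Since the same genes set the regions, this outcome was largely fixed in advance and is no test of them. The spots led by hypothalamic markers had the closest runner-up of the large regions (ratio 1.08 to 2.23), and the spots led by myelin genes also carried GABA neuron markers (5 of 6 higher, Pvalb by 2.02 on the log2 scale, and Vip lower, -1.40). A level is given throughout as CPM, the UMIs of a gene per 1000000 UMIs of the same spots, and counts come from transcript ends without length correction, so that genes are compared with themselves and not with each other. In these mixed spots, fewer cells of a type and less RNA per cell cannot be told apart.

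Chaperone genes were called between regions and not between conditions. Of 60 genes that passed the low-count filter, 37 differed in at least 1 of the 14 regions from the mean of the other regions (edgeR quasi-likelihood test with the section as a block, Benjamini-Hochberg adjusted over all genes of a region). This was 81 of 840 gene and region pairs, 52 higher and 29 lower, against 13.7% of the pairs of all genes tested, so that the share among chaperone genes (9.64%) lay below that background. In 66 of the 81 pairs all 4 sections had the same direction, and 31 pairs, from 17 genes, were called again when each section was left out in turn. Of the remaining 50 pairs, 49 lost the call without at least 1 section and 1 could not be tested without trained 2, as given region by region below. DESeq2 called 82 pairs, whereas 51 were called with marker scores from single spots and 15 with sums thinned to equal totals. Thinning brought every sum down to the smallest, 73244 UMIs in the white matter of untrained 1. These counts can include pairs outside the 81, and the share of all genes called in these settings is not given here.

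**Figure D1:**
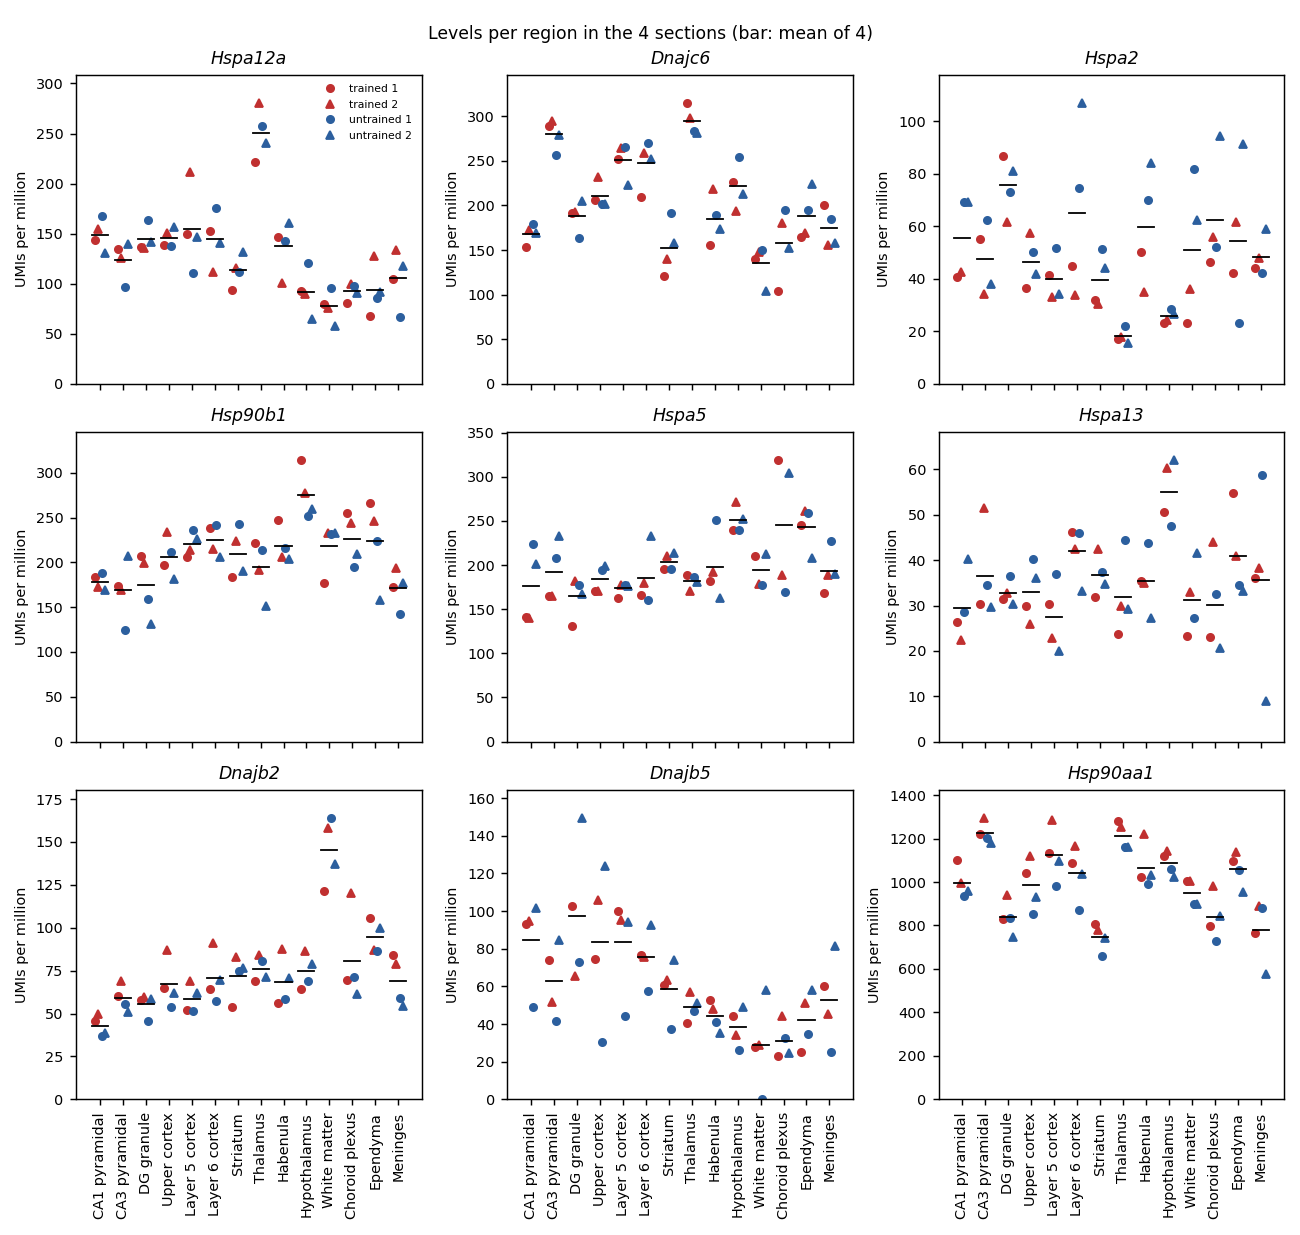
Level in CPM (vertical axis, labelled as UMIs scaled to 1000000) of 9 genes in the 14 regions (horizontal axis), with a point for each section and a bar at the mean of 4. On average over sections, Hspa12a and Dnajc6 are highest and Hspa2 lowest in the thalamus, Hsp90b1 and Hspa13 are highest in the hypothalamus, and Dnajb2 is highest in the white matter.

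The thalamic spots, led by Prkcd and Tcf7l2, held 3 called HSP70 genes, Hspa12a and Hspa8 higher and Hspa2 lower. Hspa12a, an atypical HSP70 gene on chromosome 19 (58795750 to 58943654), reached 222, 281, 258 and 241 CPM in trained 1, trained 2, untrained 1 and untrained 2, against a mean of 121 CPM over the other regions. Every thalamic value lay above every value of the other 13 regions (58.2 to 212 CPM), and the difference was 1.06 ± 0.08 on the log2 scale (SE, adjusted p = 1.83e-19, edgeR). Hspa2, an HSP70 gene known best from the testis, went the opposite way, with 16.9, 17.7, 22.2 and 15.4 CPM against 51.6 CPM elsewhere (-1.41 ± 0.18, adjusted p = 3.24e-10, edgeR). No thalamic value of Hspa2 reached the lowest value elsewhere (23.0 CPM).

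Other thalamic differences were smaller. Dnajc6 rose by 0.61 ± 0.07, from a mean of 197 CPM elsewhere to 281 to 315 CPM in the 4 sections. Hspa4l, an HSP110 gene, rose by 0.64 ± 0.08 (197 to 235 CPM against 139), and Dnajc15, a J-domain protein of the mitochondrial inner membrane, by 0.54 ± 0.09 (123 to 196 CPM against 103). The small heat shock gene Hspb1 rose by 1.04 ± 0.21 at low counts (25.9 to 41.6 CPM against 15.9), and the inducible HSP90 gene Hsp90aa1 by 0.30 ± 0.06 (1159 to 1282 CPM against 980). These calls held without each section in turn. The increases of Hsph1 (0.25 ± 0.08) and Hspa8 (0.16 ± 0.05) were lost without trained 1 or without untrained 2, with differences of 0.15 to 0.23 and adjusted p from 0.0772 to 0.0944 in those edgeR fits. In all, 9 of 60 chaperone genes were called here (15.0%), against 31.0% of all genes tested. Of GABA neuron markers, 5 of 6 were lower in the thalamic spots (-1.72 to -2.26), as were 3 of 6 astrocyte markers (Gfap -1.83) and 4 of 7 microglial markers, whereas 1 of 5 endothelial markers was higher and 0 of 4 blood genes were called. Their part in the chaperone differences was not tested.

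The hypothalamic spots, led by Hap1 and Resp18, held the most chaperone calls, 13 higher and 5 lower of 60 (30.0%), against 25.3% of all genes tested, 12.7% higher and 12.6% lower. Of the ER genes, Hsp90b1, Hspa5, Hspa13 and Dnajc10 were called higher, Dnajb12, a J-domain protein of the ER membrane, was called lower, and Dnajc3, Dnajb9 and Dnajb11 were not called. Hsp90b1 (GRP94, the HSP90 of the ER; chromosome 10, 86690209 to 86705509) reached 314, 277, 252 and 259 CPM against 203 CPM in the other regions, a difference of 0.43 ± 0.07 (adjusted p = 1.30e-06, edgeR). Hspa5 (BiP, the HSP70 of the ER, which also holds the unfolded protein sensors) reached 240, 272, 240 and 252 CPM against 195 (0.37 ± 0.08), and Hspa13, a microsomal HSP70, 50.5, 60.3, 47.5 and 62.0 CPM against 34.1 (0.71 ± 0.13). All 4 sections lay above the mean of their other regions for each of these 3 genes, and each was called without any section. Dnajc10, an ER reductase with a J domain, rose by 0.32 ± 0.10 and was lost without trained 1 (0.27, adjusted p = 0.119, edgeR). Hsp90b1 and Hspa5 are among the genes whose promoters held the ER stress element shown above. Dnajc3 is the third of them.

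Genes that fell in the hypothalamus were Hspa2 (23.2 to 28.5 CPM against 51.0; -0.90 ± 0.17), Dnaja4 (26.1 to 35.8 against 49.3; -0.75 ± 0.17), Dnajb5 (26.1 to 49.3 against 61.2; -0.62 ± 0.14, but 0.10 with all sums thinned to equal totals) and Hspa12a (64.8 to 121 against 133; -0.55 ± 0.11), all called without each section, and Dnajb12 (-0.76 ± 0.21), lost without trained 1 or trained 2. Hspa12a was thus high in the thalamus and low in the hypothalamus, whereas Hspa2 was low in both. Further increases, none of them called without each section, were found for the CCT subunits Cct8 (0.33 ± 0.08), Cct4 (0.26 ± 0.09) and Cct7 (0.22 ± 0.08), both mitochondrial chaperonin genes (Hspe1 0.24 ± 0.07 and Hspd1 0.20 ± 0.08), Dnajb1, the heat-inducible partner of HSP70 (0.38 ± 0.12), Dnajc5 (0.21 ± 0.07), Dnajc27 (0.35 ± 0.11) and Dnajc12 (0.61 ± 0.16), a partner of aromatic amino acid hydroxylases. Of the 11 genes whose call was not stable here, Dnajc5 lost it without any of the 4 sections, 9 genes were lost without trained 1, 5 without trained 2, 2 without untrained 1 and 7 without untrained 2. In those fits the differences were 0.11 (Hspd1 without trained 2) to 0.63 in size and the adjusted p 0.0509 to 0.535 (edgeR). Of the ER folding and unfolded protein response genes outside the families, 3 of 22 tested were higher in the hypothalamus and 2 were lower (Xbp1, Canx and Pdia6 higher, Atf6 and Atf4 lower; median difference 0.14 against -0.01 over all genes), and 3 were higher and 4 lower in the thalamus (median 0.00). Among cytosolic cochaperones 6 of 28 were higher in the hypothalamus and Cryab was lower. The 6 were 4 prefoldin subunits that pass clients to CCT (Pfdn2, Pfdn4, Pfdn5 and Vbp1), Fkbp4 and Stip1. Of all genes tested, 12.7% were called higher and 12.6% lower in the hypothalamus, and 15.3% higher and 15.6% lower in the thalamus. The GABA neuron markers Gad2 (1.18), Slc32a1 (1.14) and Sst (0.52) were higher and Pvalb (-1.68) and Vip (-0.76) lower in the hypothalamic spots. All 4 blood genes (-0.81 to -1.17), the astrocyte markers Slc1a2 (-0.63) and Gfap (-0.98) and 1 of 7 microglial markers were lower too, and Slc1a3 was higher (0.26), and the part of these in the chaperone differences was not tested.

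**Figure D2:**
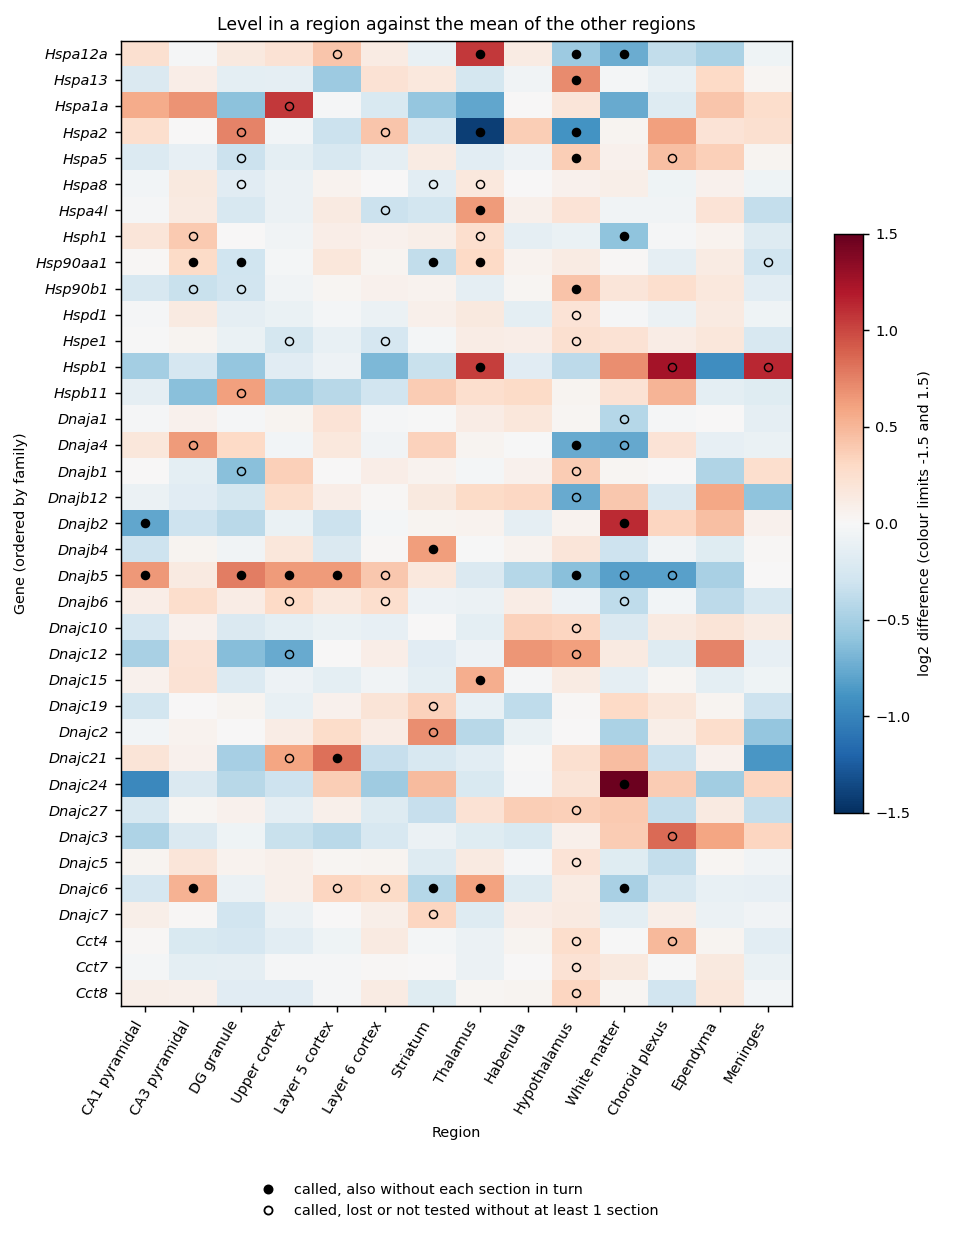
Log2 difference between a region and the mean of the other regions (colour) for the 37 genes called in at least 1 region (vertical axis) and the 14 regions (horizontal axis). Filled circles mark the 31 pairs called also without each section in turn and open circles the other 50 called pairs. The hypothalamus column has the most circles and the habenula and ependyma columns have none.

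Spots led by myelin genes showed the largest J-domain differences. Dnajb2, a J-domain protein of the ER membrane and cytosol (chromosome 1, 75236406 to 75245692), reached 121, 158, 164 and 137 CPM against 68.3 CPM elsewhere, a rise of 1.12 ± 0.12 (adjusted p = 1.31e-13, edgeR). In CA1 the same gene lay at 45.4 and 49.95 CPM in the trained and at 36.7 and 38.4 CPM in the untrained sections, against 76.2 CPM elsewhere, and all 4 sections were below their other regions (-0.78 ± 0.14). Dnajc24, a cofactor of diphthamide synthesis, rose by 1.47 ± 0.33 at low counts (37.3, 34.5, 54.6 and 24.95 CPM against 12.6). For the genes that fell with stable calls, no section reached the mean of the other regions. Hsph1 lay at 123 to 166 CPM against 228 (-0.61 ± 0.13), Hspa12a at 58.2 to 95.6 against 134 (-0.74 ± 0.16) and Dnajc6 at 104 to 150 against 209 (-0.49 ± 0.11). Dnaja1 (-0.43 ± 0.10) and Dnajb5 (-0.82 ± 0.23) were lost without trained 2, and Dnaja4 (-0.77 ± 0.26) and Dnajb6 (-0.38 ± 0.13) without trained 2 or untrained 2, with adjusted p from 0.0937 to 0.334 (edgeR). Chaperone calls made up 15.0% here, against 25.1% of all genes tested. Microglial markers were also higher in these spots (6 of 7 genes called, none lower), as were astrocyte markers (3 of 6, none lower, Gfap by 2.57), endothelial markers (2 of 5, none lower) and 5 of 6 GABA neuron markers (with Vip lower), and their part in the chaperone differences was not tested.

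The hippocampal layers were each compared with the mean of the other regions, and not with each other. Hsp90aa1 was higher in CA3 (1221, 1294, 1204 and 1181 CPM; 0.29 ± 0.06) and lower in the dentate gyrus (830, 942, 834 and 749 CPM; -0.30 ± 0.06), and no dentate value reached the lowest CA3 value. Its constitutive sister Hsp90ab1 was called in none of the 14 regions. Dnajc6 rose in CA3 by 0.52 ± 0.09 (256 to 295 CPM against 198). Dnajb5, a J-domain partner of HSP70 (chromosome 4, 42949814 to 42959425), was higher in the dentate gyrus (102, 65.7, 72.9 and 149 CPM; 0.77 ± 0.15) and in CA1 (93.3, 94.9, 48.9 and 102 CPM; 0.65 ± 0.15), although untrained 1 was far below the other sections in CA1. Hspa2 was also higher in the dentate gyrus (86.7, 61.8, 72.9 and 81.0 CPM; 0.74 ± 0.17), a call lost without trained 1 (0.62, adjusted p = 0.0609, edgeR). In CA3, Hsph1 (0.39 ± 0.10) and Dnaja4 (0.64 ± 0.20) were lost without trained 1 or trained 2, and Hsp90b1 (-0.33 ± 0.11) without those or untrained 1, with adjusted p from 0.0720 to 0.254 (edgeR). In the dentate gyrus Hspb11 rose by 0.62 ± 0.20 and Dnajb1 (-0.63 ± 0.19), Hspa8 (-0.17 ± 0.06), Hspa5 (-0.32 ± 0.11) and Hsp90b1 (-0.29 ± 0.10) fell; each was lost without trained 1 and without untrained 2, Hspa8 and Hspb11 also without trained 2 and the other 3 also without untrained 1, with adjusted p from 0.0666 to 0.489 (edgeR). Hsp90b1 was at -0.17 without untrained 2. The shares called were 3.33% in CA1, 8.33% in CA3 and 13.3% in the dentate gyrus, against 9.68%, 7.74% and 9.68% of all genes. Of 6 GABA neuron markers, 2 were higher in CA1, 2 were higher in CA3 and 2 were lower in the dentate gyrus. Of 6 astrocyte markers 3 were higher in the dentate gyrus, and 1 of 4 blood genes was lower in CA3. Their part in the chaperone differences was not tested.

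Dnajb5 was called higher in cortical spots too, although its sign was not stable. It rose in upper cortex by 0.64 ± 0.13, with 74.5, 106, 30.2 and 124 CPM, and in layer 5 by 0.64 ± 0.14, with 99.9, 95.1, 44.2 and 94.2 CPM, so that untrained 1 was lowest in both. With all sums thinned to equal totals its difference was -0.01 in upper cortex, -0.22 in layer 5 and 0.10 in the hypothalamus, each opposite in sign to the value above. In layer 6 (0.40 ± 0.13) its call was lost without trained 1, trained 2 or untrained 2 (adjusted p from 0.0666 to 0.104, edgeR). Dnajc21, a ribosome biogenesis factor, rose in layer 5 by 0.83 ± 0.19 (36.9 to 55.0 CPM against 27.5). In upper cortex the stress-inducible Hspa1a rose by 1.06 ± 0.27 (19.0, 22.3, 33.6 and 25.9 CPM against 11.8), and it could not be tested without trained 2. Reads of Hspa1a and its near-identical copy Hspa1b may have been split between them. Calls that were lost without at least 1 section were, in upper cortex, Dnajb6 (0.29 ± 0.09), Dnajc21 (0.59 ± 0.19), Hspe1 (-0.27 ± 0.09) and Dnajc12 (-0.76 ± 0.24), in layer 5 Dnajc6 (0.33 ± 0.08) and Hspa12a (0.41 ± 0.11), and in layer 6 Dnajc6 (0.29 ± 0.08), Dnajb6 (0.25 ± 0.09), Hspa2 (0.42 ± 0.14), Hspa4l (-0.32 ± 0.10) and Hspe1 (-0.26 ± 0.08). Dnajb6 in upper cortex was at 0.18 without untrained 1 (adjusted p = 0.196, edgeR), Hspa12a in layer 5 at 0.22 without trained 2 (adjusted p = 0.450, edgeR), and Hspa2 in layer 6 at 0.11 without untrained 2 (adjusted p = 0.813, edgeR). With a stricter marker score for layer 6 the difference of Hspa2 turned to -0.10. Calls made up 10.0% in upper cortex, 6.67% in layer 5 and 10.0% in layer 6, against 19.7%, 10.3% and 16.4% of all genes. In layer 6, 4 of 6 astrocyte, 3 of 7 microglial, 3 of 5 endothelial and 4 of 4 blood genes were lower, none higher. Of 6 GABA neuron markers there, 2 were higher and 4 lower. Of 6 astrocyte markers, 3 were lower and 1 higher in upper cortex, and 3 were lower in layer 5. Their part in the chaperone differences was not tested.

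In striatal spots Hsp90aa1 was at its lowest (809, 778, 657 and 741 CPM against 1016; -0.37 ± 0.06) and Dnajc6 was low as well (121 to 191 CPM against 208; -0.42 ± 0.09). Dnajb4, a cytosolic J-domain partner of HSP70, was higher there in all sections (90.8, 98.1, 121 and 120 CPM against 72.5; 0.63 ± 0.12). Dnajc2 (0.70 ± 0.17), Dnajc19 (0.35 ± 0.11), Dnajc7 (0.32 ± 0.11) and Hspa8 (-0.16 ± 0.06) were called and were lost without at least 1 of trained 1, trained 2 and untrained 2. With thinned sums the difference of Dnajc19 turned to -0.02. The share called was 11.7%, against 17.6% of all genes. Of 6 GABA neuron markers 3 were higher and 1 lower in the striatal spots. There 2 of 7 microglial markers were higher and 1 of 6 astrocyte markers lower, and their part was not tested. In choroid plexus spots Hspa5 (318, 188, 169 and 304 CPM; 0.45 ± 0.12), Dnajc3, the ER inhibitor of PERK signalling with a J domain (92.7, 40.0, 32.5 and 78.0 CPM; 0.85 ± 0.26), Hspb1 (1.25 ± 0.36) and Cct4 (0.49 ± 0.15) rose and Dnajb5 fell (-0.81 ± 0.27; 0.15 with marker scores from single spots). Trained 1 and untrained 2 carried both ER genes, whose calls were lost without either section (Hspa5 0.25 and 0.33, Dnajc3 0.58 and 0.64, adjusted p from 0.238 to 0.401, edgeR). Of the 22 ER folding and unfolded protein response genes outside the families, 5 were higher here and 0 lower (Pdia3, Ppib, Manf, Pdia6 and Sil1). The median difference of the 22 was 0.29, and more were called higher than in any other region. Of all genes tested, 6.86% were called higher and 2.32% lower here. The 5 choroid plexus calls (8.33%, against 9.18% of all genes) were all lost without trained 1 and without untrained 2, with Hspb1 at 0.72 without trained 1 and Dnajb5 at -0.53 without untrained 2. In meningeal spots Hspb1 rose (1.13 ± 0.34; lost without trained 2 or untrained 2) and Hsp90aa1 fell (-0.29 ± 0.07; lost without trained 1 or untrained 2), a share of 3.33% against 2.34% of all genes. Astrocyte markers (6 of 6, Gfap by 2.44), blood genes (4 of 4), 2 of 7 microglial and 1 of 5 endothelial markers were also higher in the meningeal spots, and blood genes (4 of 4), Gfap (1.24) and 2 of 7 microglial markers in the choroid plexus spots, and their part in the chaperone differences was not tested. No chaperone gene was called in the habenular or ependymal spots, against 2.72% and 5.0% of all genes tested. The other 23 of the 60 genes tested, among them Hsp90ab1, Hspa4 and Hspa9, were called in none of the 14 regions.

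The comparison for which the sections were made was that of trained with untrained mice. No chaperone gene was called between trained and untrained sections in all spots (0 of 72 tested, adjusted p of at least 0.328, edgeR). The share over all genes tested was 0.0145%, and DESeq2 called 0 chaperone genes as well. At an unadjusted p under 0.05 there were 5 genes with edgeR (6.94%, against 7.96% of all genes) and 3 with DESeq2. Hspa8, the constitutive HSP70, lay at 1727 and 1801 CPM in the trained and 1783 and 1728 CPM in the untrained sections, and Hsp90ab1 at 1102 and 1015 against 1125 and 1092 CPM. For Hsp90aa1 the values were 1062 and 1110 against 953 and 973 CPM, and for Hsp90b1 221 and 218 against 212 and 198 CPM. Dnajb1, a sensitive target of heat shock factor, lay at 74.2 and 75.2 against 71.6 and 76.4 CPM. The groups overlapped for Hspa8, Hsp90ab1 and Dnajb1 and not for Hsp90aa1 and Hsp90b1, whose adjusted p were 0.866 and 0.971 (edgeR). In simulated counts, 35.8% of 1.5-fold and 82.1% of 2-fold changes were called in all spots, and 16.4% and 64.2% in hippocampal spots. For the thalamus against the other regions, 84.1% of 1.5-fold changes were called. A lack of training calls is therefore no evidence of equal levels.

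**Figure D3:**
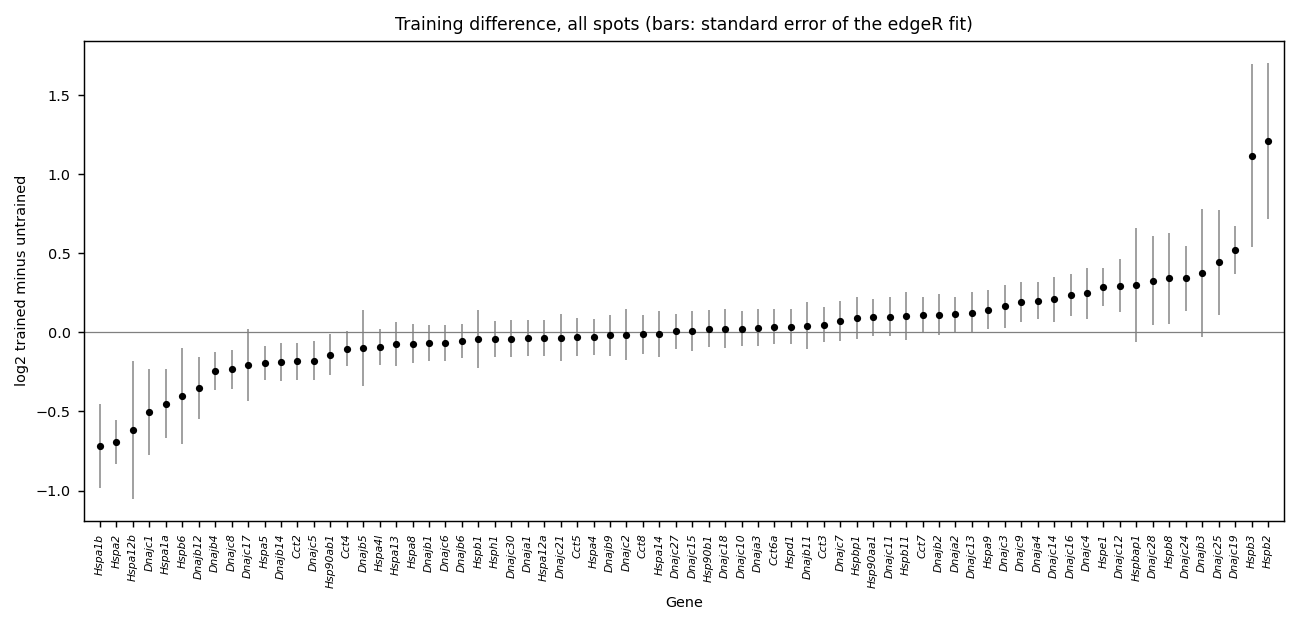
Log2 difference between trained and untrained sections (vertical axis) of the 72 genes (horizontal axis, sorted), with the standard error of the edgeR fit over 2 and 2 sections. The ends are Hspa1b and Hspa2 below 0 and Hspb2 above 0, and no gene passed the adjusted threshold.

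The genes with the smallest p were Hspa2, Dnajc19, Hspa1b, Hspb2 and Hspe1. Hspa2 lay at 38.2 and 33.0 CPM in the trained and 53.4 and 55.3 CPM in the untrained sections, a difference of -0.69 ± 0.14 (adjusted p = 0.328, edgeR). Dnajc19, a J-domain subunit of the mitochondrial import motor (chromosome 3, 34056020 to 34081321), lay at 91.7 and 133 against 69.9 and 77.6 CPM (0.52 ± 0.15, adjusted p = 0.548, edgeR). Trained sections were lower for the former and higher for the latter, without overlap. Without the low-count filter both passed the threshold (adjusted p = 0.00102 for Hspa2 and 0.0151 for Dnajc19, edgeR), and with the replicate number as a block Hspa2 did (0.0386). For these fits, and for those with a section left out, the share of all genes called is not given here. The calls are therefore no result about these genes in particular. Without trained 1, when trained 2 alone stood for the trained mice and was assumed to vary like the others, both passed the threshold, Hspa2 with -0.86 (adjusted p = 1.03e-05) and Dnajc19 with 0.70 (adjusted p = 6.70e-05, edgeR). Trained 2 had 6.83% mitochondrial UMIs, against 11.6% to 12.2% in the other sections, and 744 CPM of thalamic markers, against 392 to 484 CPM. It also had 3349 CPM of myelin markers, against 2060 to 2373 CPM, and 454 CPM of blood markers, against 638 to 817 CPM, and Dnajc19 had its highest mean in the myelin-led spots (118 CPM). The part of these in the differences was not tested. Pseudogene copies named after Dnajc19 (1) and Hspe1 (6) are annotated, so that reads of these genes may have been lost to or shared with copies.

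Hspe1 lay at 261 and 322 CPM in the trained and 222 and 229 CPM in the untrained sections (0.29 ± 0.12, adjusted p = 0.598, edgeR). Its head-to-head neighbour Hspd1 lay at 154 and 165 against 142 and 152 CPM. Both genes were higher in both trained sections, by margins that did not pass the test. The stress-inducible pair was lower, Hspa1b with 7.02 and 5.81 against 8.99 and 10.6 CPM (-0.72 ± 0.27) and Hspa1a with 11.8 and 10.2 against 13.2 and 14.9 CPM (-0.45 ± 0.22), from 32 to 105 UMIs per gene and section. Hspb2 rested on 20 and 26 UMIs in the trained and 3 and 8 UMIs in the untrained sections (1.21 ± 0.50, adjusted p = 0.597, edgeR). Its annotated span overlaps Cryab, a small heat shock gene abundant in myelinating cells, on the opposite strand. Of the 72 genes, 41 had sections that did not overlap, and in 30 of the 72 both trained sections lay higher. Of all genes tested, 5657 of 13810 (41.0%) did not overlap and 3983 (28.8%) lay higher, so both shares were larger among chaperone genes. These counts rest on CPM, and trained 2 had the lowest mitochondrial share of UMIs (6.83%). The part of this in the counts was not tested. The median log2 difference of the 72 genes was 0.01, as over all genes (0.01).

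Other genes are given by role. Among ER members, Hspa5 lay at 185 and 193 CPM in the trained and 203 and 206 CPM in the untrained sections (-0.19 ± 0.11), without overlap. The ER J-domain genes Dnajb9 (61.4 and 58.8 against 62.4 and 53.6 CPM) and Dnajb11 (49.3 and 51.4 against 53.6 and 40.3 CPM) overlapped between conditions. Hspa9, the mitochondrial HSP70, lay at 181 and 219 against 181 and 162 CPM (0.14 ± 0.12). Of the synaptic partners of Hspa8, Dnajc5 lay at 175 and 188 against 211 and 179 CPM and Dnajc6 at 211 and 221 against 224 and 205 CPM, both with overlap. The 7 CCT genes described differed by -0.18 (Cct2) to 0.11 (Cct7) on the log2 scale, each with a standard error of 0.11 or 0.12. Among low-count genes, Hspb3 lay at 2.81 and 2.42 against 1.97 and 0.608 CPM (1.12 ± 0.58) and Dnajc25 at 5.48 and 5.23 against 3.37 and 3.95 CPM (0.44 ± 0.33), both without overlap. Dnajb5 lay at 66.0 and 59.9 CPM in the trained and 41.3 and 83.0 CPM in the untrained sections (-0.10 ± 0.24), so that the untrained sections lay on both sides of the trained ones.

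**Figure D4:**
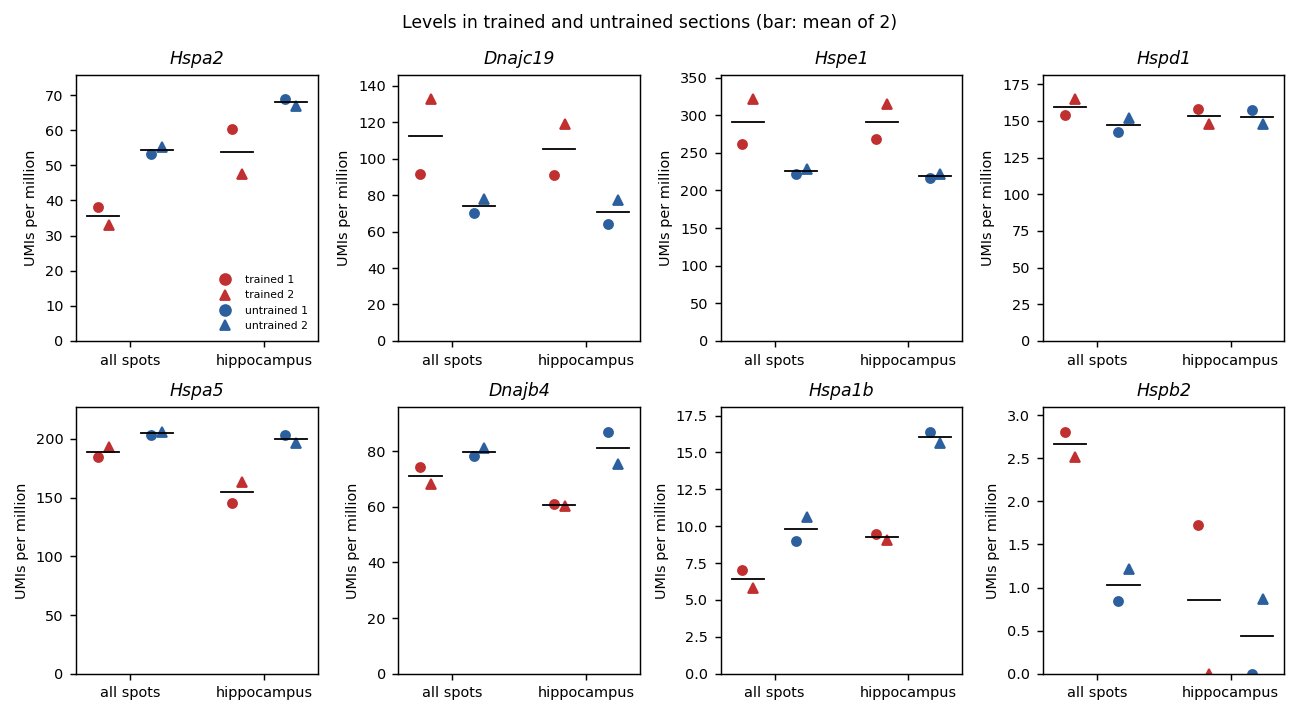
Level in CPM (vertical axis, labelled as UMIs scaled to 1000000) of 8 genes in the trained (red) and untrained (blue) sections, over all spots and over hippocampal spots, with a bar at the mean of 2. Dnajc19, Hspe1, Hspd1 and Hspb2 lie higher and Hspa2, Hspa5, Dnajb4 and Hspa1b lower in both trained sections over all spots, and none of these differences passed the adjusted threshold.

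Hippocampal spots were those led by CA1, CA3 or dentate gyrus markers (411 to 435 per section). In them 0 of 62 genes tested were called (adjusted p of at least 0.649, edgeR), against 0.116% of all genes, and DESeq2 called 0. An unadjusted p under 0.05 was reached by 4 with edgeR (6.45%, against 6.40% of all genes) and by 0 with DESeq2. Dnajc19 lay at 91.2 and 119 CPM in the trained and 64.0 and 77.3 CPM in the untrained sections (0.52 ± 0.20, adjusted p = 0.649). Hspa5 lay at 145 and 164 against 204 and 196 CPM (-0.40 ± 0.17, adjusted p = 0.670), and Hspe1 at 268 and 315 against 217 and 221 CPM (0.38 ± 0.16, adjusted p = 0.678). The sections of these 3 genes did not overlap, with Hspa5 lower and the 2 mitochondrial genes Dnajc19 and Hspe1 higher in the trained mice. Dnajb4 lay at 61.1 and 60.3 against 87.0 and 75.5 CPM (-0.44 ± 0.21, adjusted p = 0.743), and Hspa1b at 9.46 and 9.05 against 16.4 and 15.6 CPM, from 10 to 18 UMIs per section (-0.81 ± 0.44, adjusted p = 0.811; all edgeR). Hspd1, with 158 and 148 against 158 and 148 CPM, overlapped here. In 20 of 62 genes the sections did not overlap, 15 of them higher in the trained mice, against 36.5% of all genes tested without overlap and 21.4% with trained higher. Pvalb, a marker of fast-spiking GABA neurons, was higher in the trained hippocampal spots (1.24 on the log2 scale). It was the 1 called of 6 GABA neuron markers, of which 4 had a positive and 2 a negative difference (median 0.50), and their part in the chaperone values was not tested. A rank-sum test on single spots, which treats spots of 1 mouse as replicates, called 29 of 69 chaperone genes here (42.0%) and 29.3% of all genes tested that way.

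Summed over all 84 genes, chaperone UMIs made up 9521 and 10012 CPM in the trained and 9453 and 9290 CPM in the untrained sections, a difference of 395 CPM (exact permutation test, two-sided p = 0.333, the smallest that 2 against 2 sections allow). In hippocampal spots the sums were 9627 and 9568 against 9441 and 9416 (exact permutation p = 0.333). The direction rested on the total, since without mitochondrially encoded genes, Bc1, Ttr and Gm42418 in the denominator the difference became -124 CPM in all spots and -169 in hippocampal spots (exact permutation p = 0.667). The CCT genes together took 1029 and 1086 against 1032 and 991 CPM. The HSP70 family, at 2352 and 2492 against 2463 and 2381 CPM, overlapped in all spots, as did the CCT, HSP110 and DNAJB families. The other 6 families lay higher in both trained sections there, on the same total that set the direction of the summed difference. Family sums were not recomputed without the abundant genes. In hippocampal spots HSP70 lay lower in both trained sections, at 2349 and 2326 against 2499 and 2360 CPM (exact permutation p = 0.333). The HSP60 and HSP10 genes lay higher in both trained sections there, at 428 and 462 against 374 and 371 CPM. The DNAJA and DNAJC families did so too (exact permutation p = 0.333 for each).

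Within the 14 regions, 0 of 737 gene and region pairs were called for training, against 0.0708% of all pairs; 32 of them (4.34%) had an unadjusted p under 0.05, as had 6.34% of all pairs, and DESeq2 gave 3 and called 0. The smallest p belonged to Hspa2 in layer 6, at 44.7 and 34.0 CPM in the trained and 74.7 and 107 CPM in the untrained sections (-1.36 ± 0.28, adjusted p = 0.208, edgeR); it was called without the low-count filter (-1.34, adjusted p = 0.0028), with the replicate number as a block (-1.37, adjusted p = 0.000717) and without trained 1 (-1.64, adjusted p = 8.40e-05; all edgeR). Hspa2 was lower in the trained sections in 14 of 14 regions, by 0.07 to 1.36 in size, and both trained sections lay below both untrained ones in 6 regions; of 3285 genes tested in all regions, 2.56% were lower in 14 and 7.31% lay below without overlap in 6 or more. Dnajc19 was higher in 12 of 14 regions, without overlap in 9 (11.4% and 4.2% of those genes reached these counts), and followed next by p in the thalamus (94.6 and 123 against 58.3 and 64.8 CPM; 0.76 ± 0.22, adjusted p = 0.394), CA3 (105 and 142 against 48.4 and 59.3 CPM; 1.14 ± 0.35), the hypothalamus (0.68 ± 0.23) and layer 5 (0.75 ± 0.28, and -0.079 with a stricter marker score). Without trained 1 the thalamic difference of Dnajc19 was called (0.87, adjusted p = 0.0305, edgeR). Hspe1 was higher in 11 of 14 regions, without overlap in 10 (17.8% and 2.44%), and lower without overlap in 1. Its partner Hspd1 was higher in 6 of 14 regions and lower in 8 (43.9%). Without overlap Hspd1 was lower in 2 regions (48.1%) and higher in 2. Hsp90aa1 was higher in 14 of 14 regions, without overlap in 10, by 0.05 to 0.17 (3.41% and 2.44%), and Hsp90ab1 was lower in 14 of 14, without overlap in 2 (2.56% and 48.1%). Over all chaperone genes, 261 of the 737 pairs did not overlap (35.4%), 177 of them higher in the trained sections (24.0%), against 36.2% and 22.3% of all pairs. Hspa2, Dnajc19 and Hspe1 were named for their p in the same sections, and the regions of a section share a mouse and a library, so that these counts are not independent. Calls under the alternatives are given without the share of all genes called in the same fits.

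Whether training acted differently in a region than in the others was tested by an interaction. None of 840 pairs was called (31 had an unadjusted p under 0.05, 3.69% against 5.04% of all pairs, and 24 with DESeq2, which called 0), against 0.0111% of all pairs. Hspa2 in layer 6 had the smallest p (-0.96 ± 0.27, adjusted p = 0.514), followed by Dnajc24 in layer 6 (-2.43 ± 0.72, from 3 to 9 UMIs per section), Dnajc15 in layer 6 (-0.61 ± 0.20), Hspe1 in the meninges (-0.64 ± 0.22) and Hspb11 in the habenula (1.28 ± 0.46), with adjusted p from 0.514 to 0.902 (edgeR). Partner genes outside the families were compared in the same way. Of 30 cytosolic cochaperones, 10 mitochondrial chaperones and 24 ER folding and unfolded protein response genes tested in all spots, 0 were called, with 3, 0 and 4 (10.0%, 0% and 16.7%, against 7.96% of all genes) at an unadjusted p under 0.05 and median log2 differences of -0.04, 0.06 and -0.02. Within regions 1 of 709 pairs of these lists was called (0.141%, against 0.0708% of all pairs), Cryab in layer 5, where 0.426% of all genes were called; it was higher in the trained sections (1.02 ± 0.25, adjusted p = 0.0177, edgeR). In the same spots Pvalb was called higher (1.14) and Sst lower (-0.75), Cryab was itself higher in myelin-led spots (2.25), and trained 2 had the most myelin markers (above). Their part in the Cryab difference was not tested. The 10 temperature and clock genes, which can move with body temperature or time of day, summed to 802 and 902 CPM in the trained and 644 and 860 CPM in the untrained sections, and 0 of them were called.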

How the data were processed

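Visium UMI counts per gene and spot were deposited by the authors as 1 matrix per section, raw and not normalized, after Space Ranger (version 1.2.2 per the file headers). The study's methods name a later Space Ranger version and mouse build mm10, and the submitters' processing notes name Cell Ranger 8, STAR and build GRCm39 without their role, so that the run and build behind the counts were not settled. Gene positions are those of mm10 (GENCODE vM21). Counts of spots over tissue were summed per section (n = 2 per condition, 1 mouse each) and per region, a region being the marker list with the highest score (at least 1) over a spot and its touching neighbours. No spot annotation by the authors was used here. Sums were tested with edgeR 4.0.16 (R 4.3.3; filterByExpr, TMM, quasi-likelihood F test, Benjamini-Hochberg over all genes, threshold 0.05), trained against untrained, and region against the others with the section as a block. For training, p-values rest on the spread between sections, moderated by a spread that edgeR shares across genes. The weight of the shared spread was 8.15 degrees of freedom in all spots and 239 in layer 5. For regions, the section block removes shifts common to a whole section. Region p-values therefore rest on the scatter of region sums that is left, pooled over regions, and not on the spread between mice alone. Summed levels were compared by exact permutation. CPM are UMIs per 1000000, whereas log2 differences are TMM-scaled. The script was tested on simulated data. Alternatives were DESeq2 1.42.0, no low-count filter, abundant genes left out, thinned sums, other region rules, a replicate block and each section left out. Genes were named from a fixed list of chaperones by role, plus the 5 smallest p and all called genes of a comparison. Members and lists were chosen with earlier results of these data known. A withheld item is not reported here.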

Additional observations from a re-analysis of the deposited data

How the results depend on the processing

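The comparisons rest on 2 sections per condition, with 3560294 to 10330015 UMIs each, and on regions rebuilt from markers. The 0 training calls among chaperone genes in all spots became 2 without a low-count filter and 1 with a replicate block, and ranged from 0 to 2 when each section was left out. Within regions the 0 calls became 1 without the filter and 1 with the replicate block, and ranged from 0 to 2 with sections left out. Those calls were Hspa2 and Dnajc19 in all spots (adjusted p = 0.00102 and 0.0151 without the filter), Hspa2 with the block (0.0386), Hspa2 in layer 6 (0.0028 and 0.000717), and, without trained 1, those given above (all edgeR). Over all alternatives the adjusted p ranged from 1.03e-05 to 0.896 for Hspa2 and from 6.70e-05 to 0.999 for Dnajc19. Sections with the same replicate number shared only a number (correlation of deviations 0.0190 over 13810 genes), and the block changed no other call. The rank-sum test on spots called 29 genes in the hippocampus. Against 81 region calls, 15 pairs were called with thinned sums and 51 with scores from single spots. With sections left out 48 to 77 were called (48 without trained 1, 55 without trained 2, 77 without untrained 1, 50 without untrained 2). These counts can include pairs outside the 81. With thinned sums 39 of the 81 lost the call, and with scores from single spots also 39. The trained minus untrained sum reversed to -124 CPM in all spots and -169 in hippocampal spots without mitochondrially encoded genes, Bc1, Ttr and Gm42418. Single genes reversed for Dnajc19 in layer 5 (training, -0.079, leading score of at least 2), Hspa2 in layer 6 (region, -0.10, same setting), Dnajb5 in the choroid plexus (0.15, single spots), and with thinned sums Dnajb5 in the hypothalamus (0.10), layer 5 (-0.22) and upper cortex (-0.010) and Dnajc19 in the striatum (-0.025). The cause of these changes was not tested. An alternative that kept only spots with mostly like neighbours was chosen after seeing the data. Of 213 values of named genes for training, 203 kept direction and side of the threshold, and of 853 for regions 605 did and 242 lost the call. Except for the rank-sum test, the share of all genes called under an alternative is not given here.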
